A study of Arabidopsis thaliana with 12 samples.

Results

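Wired leaf 8 was compared with leaf 13 of unwounded plants on 6 of the 12 expression arrays in the study, 3 arrays for each, placed in their groups by the labels alone. All plants were Arabidopsis thaliana of accession Col-0, grown in soil for 5 weeks with 10 h of light a day. For the first group, platinum wire had been put into the petiole of leaf 8, no current was passed, and the blade was taken as the control of a current experiment with harvest at 1 h. The second group was leaf 13 of plants that were not wounded, the control of a wounding experiment. Leaf position, wire and experiment differ together between these groups and cannot be told apart in any difference given here. The hour of day at harvest is not given in the sources used here. The other 6 arrays hold leaf 8 after a current of 40 µA for 10 s, and leaf 13 of plants in which 40% of leaf 8 had been wounded 1 h earlier. They give the same pair of leaf positions, with the same difference of wire and experiment, on arrays that the first comparison did not use. Whether replicates came from separate plants is not stated, and if they did not, the p-values reflect technical spread alone.

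Rosette leaves are numbered in the order in which they appear, so leaf 8 is the older and leaf 13 the younger of the pair. A young blade grows first by cell division and then by cell expansion, for which expansins and xyloglucan-modifying enzymes loosen the wall, while its plastids make chlorophyll and assemble photosystems. An ageing blade instead recycles its contents, through autophagy and later through senescence, in which WRKY transcription factors take part. Contact with or injury to a petiole can switch on rapid stress genes and the synthesis of jasmonate, the main wound hormone of plants.

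Values are log2 RMA expression values, on which a difference of 1 is 2-fold, and differences are wired leaf 8 minus unwounded leaf 13 with limma's standard error (SE). A gene is called when its adjusted p is under 0.05 after Benjamini-Hochberg adjustment over 13356 genes. By this rule 4391 genes (32.9%) differed, of which 2223 (16.6% of those tested) were higher in wired leaf 8 and 2168 (16.2%) were lower. Of these, 387 (2.90%) were higher and 295 (2.21%) lower by at least 2-fold. The 3 arrays of one group lay entirely above or below those of the other for 6061 genes (45.4%). Only 344 of the higher and 318 of the lower genes carry a name other than a locus identifier, and the gene groups below are drawn from such genes. Of protein-coding genes with a symbol 14.6% were tested, against 63.1% of those without one. The groups thus cover a small and uneven part of the named genes. The median difference over all genes was -0.02, and a typical difference had an SE of 0.113. Across genes, Pearson's r was 0.991 to 0.996 between replicate arrays and 0.969 to 0.976 between a wired and an unwounded array.

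The labelled tissue was checked against marker genes. RCA, which activates Rubisco, and the light-harvesting genes LHCB4.1 and LHCB4.2 had means between 12.47 and 12.96 in both groups, near the highest deposited value of 13.3. The root genes PYK10 and AGL42 had means between 2.13 and 2.42, near the lowest deposited value of 1.46. Among 3 tested genes of vascular tissue, the wall genes GUT2 and IRX15-L were at -0.23 and -0.16 and were not called. SWEET11, a sucrose exporter of the phloem parenchyma, was higher by 0.70 (SE 0.15). The values were taken from RNA of leaf tissue not separated into cell types, in which fewer cells of a type and less RNA per cell cannot be told apart.

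The share of each gene group that was called is shown first, and the groups are then taken by role. Groups with at least 5 tested members are described by their counts, to be read against the 16.6% of all genes that were higher and the 16.2% that were lower. The groups hold named genes, of which larger shares were called. Of 1683 named genes 344 were higher and 318 lower, and a group near these shares does not stand out from named genes.

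**Figure D1:**
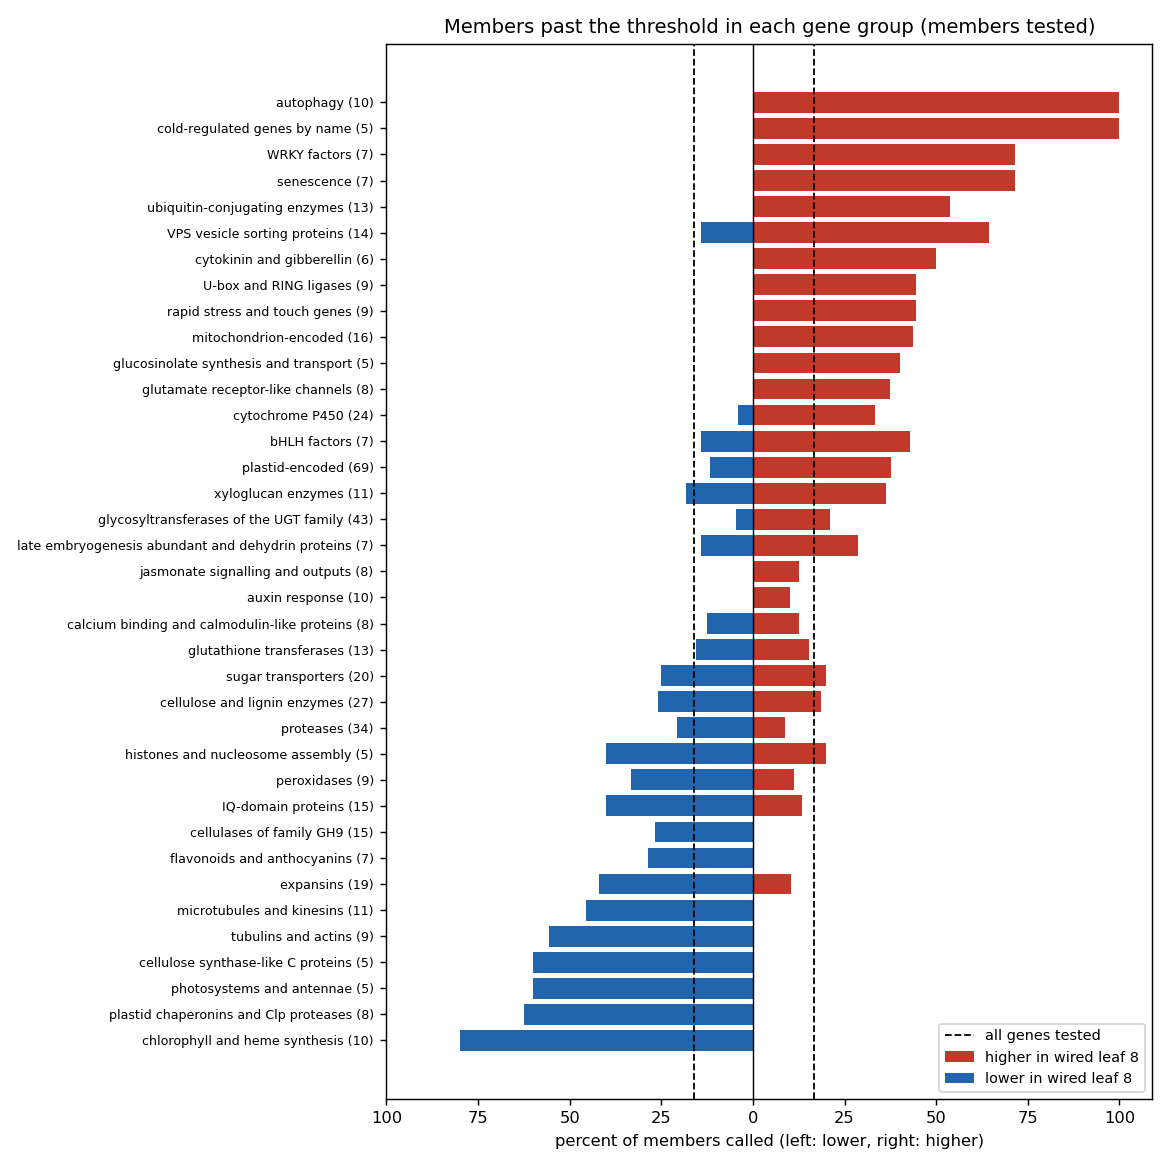
Percent of the tested members of each gene group that were higher (right, red) or lower (left, blue) in wired leaf 8 than in unwounded leaf 13 at an adjusted p under 0.05, with the number of members tested in brackets and dashed lines at the 16.6% and 16.2% of all genes. All 10 tested autophagy genes (ATG8 genes and ATG3) and all 5 cold-regulated genes were higher, and 8 of 10 chlorophyll and heme genes were lower.

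The tested genes named for cold were higher in wired leaf 8, while those of the late embryogenesis abundant and dehydrin group were divided. COR27, a cold-regulated gene that also follows the circadian clock, was at 8.47, 8.36 and 8.24 on the wired arrays and at 2.72, 2.61 and 2.52 on the unwounded arrays. The groups were far apart, by 5.74 (SE 0.64, limma adjusted p = 1.21e-05) or 53.4-fold, and COR27 had the largest difference of the named genes. Its SE was large for such tight arrays, and the variance it rests on also covers the current arrays, where COR27 stood at 8.23, 5.99 and 4.07. COR47, a dehydrin that protects cells from water loss, was at 11.62, 11.54 and 11.61 against 8.96, 9.12 and 9.03, a difference of 2.55 (SE 0.11, limma adjusted p = 2.07e-09). Its wired arrays lay within 0.1 of each other. The dehydrin LTI30 was higher by 2.70 (SE 0.20), and COR15B and COR15A, which protect chloroplast membranes in the cold, by 2.02 (SE 0.17) and 1.73 (SE 0.11). All 5 genes named as cold-regulated were therefore higher, with a median of 2.55, in a group chosen after its values were seen. Of 7 late embryogenesis abundant and other dehydrin genes 2 were higher and 1 was lower, with a median of -0.04. AT1G54410 and LEA4-5 were higher by 0.88 (SE 0.10) and 0.82 (SE 0.17), and AT2G46140 at -0.30 was lower but lost its call without unwounded replicate 1 or 3 or wired replicate 2 or 3, with a robust trend and with the replicate block (limma adjusted p from 0.0545 to 0.173).

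Other large rises fell into several functions. WSD1, which makes the wax esters of the cuticle, was at 8.06, 8.39 and 8.08 on the wired and 4.89, 4.44 and 5.17 on the unwounded arrays, higher by 3.34 (SE 0.36, limma adjusted p = 8e-06) or 10.1-fold. SIS, a gene induced by salt, was at 8.04, 7.94 and 7.85 against 4.95, 5.00 and 4.85, and its difference was 3.01 (SE 0.18). HIS1-3, a linker histone induced by drought, was higher by 2.27 (SE 0.27). PPDK, pyruvate orthophosphate dikinase, which helps move nitrogen out of ageing leaves, was at 7.91, 8.85 and 8.35 against 5.72, 6.25 and 5.82, a difference of 2.44 (SE 0.27). CHI, a chitinase, was higher by 2.49 (SE 0.46), with wired arrays spread from 4.88 to 6.70.

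**Figure D2:**
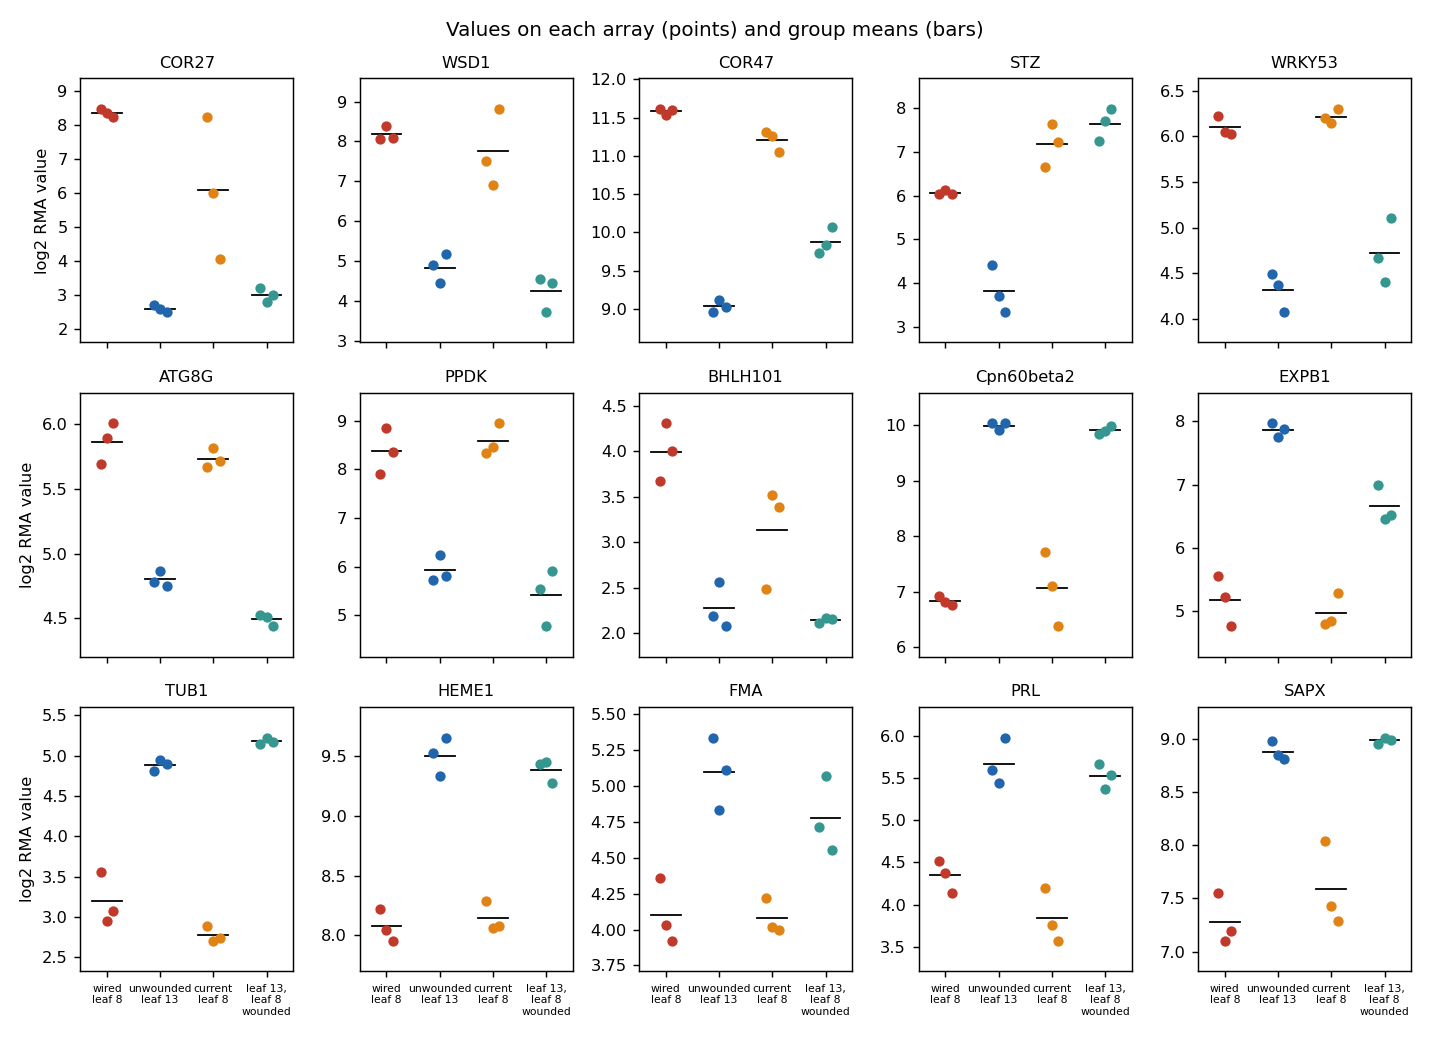
Log2 RMA values of 15 named genes on each of the 12 arrays (points, 3 per group) with group means (bars), and axes that do not start at 0. COR27 lies between 8.24 and 8.47 in wired leaf 8 and between 2.52 and 2.72 in unwounded leaf 13, and Cpn60beta2 shows the opposite order.

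Genes of rapid stress and touch differed more moderately. Of 9 members 4 were higher and none was lower, with a median of 0.56 (limma, with 5 higher and 0 lower at an unadjusted p under 0.05). STZ, a zinc finger repressor induced by many stresses, was at 6.03, 6.13 and 6.05 in wired leaf 8 and at 4.41, 3.70 and 3.34 in unwounded leaf 13, higher by 2.25 (SE 0.26, limma adjusted p = 1.59e-05). The ubiquitin ligase PUB24 was higher by 0.93 (SE 0.23), the calmodulin-like gene CML42 by 0.74 (SE 0.14) and PUB23 by 0.56 (SE 0.15, limma adjusted p = 0.0559 without wired replicate 1). CML38, another calmodulin-like gene, stood at 0.64 (SE 0.30) and was not called, though it was in a fit of the 6 arrays alone (limma adjusted p = 0.0266). Among 9 U-box ligases, which attach ubiquitin to proteins, 4 were higher. The 2 groups share members, PUB24 among them. PUB19 led the ligases at 6.43, 8.06 and 7.34 against 4.52, 4.22 and 4.23, a difference of 2.95 (SE 0.41). The wired arrays of PUB19 spread over more than 1 unit. PUB43 was higher by 0.78 (SE 0.16).

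Leaf 13 of wounded plants was measured against the same unwounded arrays, so these differences share their controls with the leaf comparison and are set side by side only. STZ was higher by 2.25 in wired leaf 8 and by 3.83 (SE 0.26) in leaf 13 of wounded plants. PUB43 was higher by 0.78 and 2.95, PUB19 by 2.95 and 2.78, and LTI30 by 2.70 and 2.18. For COR27 the values were 5.74 and 0.40, the latter not called. PUB24 was higher by 0.93 and 1.29, and CML38 stood at 0.64, not called, and 3.11. In contrast, CML42 was higher by 0.74 in wired leaf 8 and lower in leaf 13 of wounded plants, at -0.53 (SE 0.14).

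Jasmonate genes differed little between the leaves. Of 8 signalling and output genes 1 was higher, with a median of -0.02 (limma, with 1 higher and 0 lower at an unadjusted p under 0.05). That gene was the thionin THI2.1, at 0.39 (SE 0.13, limma adjusted p = 0.0319), and its call was lost in a fit of the 6 arrays alone, under median centring, and without unwounded replicate 2 or 3 or wired replicate 1 or 3 (limma adjusted p from 0.0553 to 0.164). The jasmonate regulators ORA47 and MYC3 stood at -0.12 (SE 0.23) and 0.21 (SE 0.18), and NAI1, which controls the ER bodies of seedlings, at 0.08 (SE 0.19). JMT, which methylates jasmonate, was at 3.71, 4.28 and 3.88 against 3.96, 4.18 and 3.84, so the groups overlapped and the difference was -0.03 (SE 0.15). OPCL1, an acyl-CoA ligase of jasmonate synthesis, was at 8.14, 8.33 and 8.22 against 7.83, 7.73 and 7.55 and was called, higher by 0.52 (SE 0.19, limma adjusted p = 0.0444). Its call was lost without any 1 of the 6 arrays, under median centring and with a robust trend (limma adjusted p from 0.0595 to 0.151). In leaf 13 of wounded plants, set against the same unwounded arrays, JMT was higher by 3.13, OPCL1 by 3.64, ORA47 by 3.35 and NAI1 by 2.88.

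The tested genes of autophagy, which were ATG8 genes and ATG3, were higher in the older leaf without exception. Autophagy wraps cytoplasm in membranes for breakdown in the vacuole, and the ATG8 proteins are anchored in these membranes. All 10 tested members, of 36 listed, were called higher, with differences from 0.45 to 1.07 and a median of 0.76. How far the probes tell the ATG8 genes apart was not tested. ATG8E was at 6.33, 6.49 and 6.60 on the wired and 5.51, 5.63 and 5.07 on the unwounded arrays, higher by 1.07 (SE 0.16, limma adjusted p = 0.000108). ATG8G was at 5.69, 5.89 and 6.01 against 4.78, 4.87 and 4.75, a tighter separation of 1.06 (SE 0.10, limma adjusted p = 1.9e-06). APG8A, an ATG8 gene under an older name, was higher by 0.89 (SE 0.13), and 6 other ATG8 genes by 0.58 to 0.78. ATG3, the enzyme that joins ATG8 to lipid, was higher by 0.45 (SE 0.12), the smallest of the 10, and missed the threshold without unwounded replicate 3 (limma adjusted p = 0.0568). In each of the 10, every wired array lay above every unwounded array.

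Groups of senescence and turnover genes held more higher than lower members, apart from the proteases described further on. Of 7 senescence genes 5 were higher and none lower, with a median of 0.65. Among them WRKY53, an early regulator of leaf senescence, was at 6.22, 6.05 and 6.03 against 4.49, 4.37 and 4.08, higher by 1.79 (SE 0.15, limma adjusted p = 1.21e-06). SAG101, which acts in immunity and was found in senescing leaves, was higher by 0.63 (SE 0.11). SAG29 and the chlorophyll b reductase NOL, both tied to later senescence, were at -0.09 and -0.08 and were not called, and SAG29 stood near 4 in both groups. Of 7 WRKY factors 5 were higher, with a median of 0.65. WRKY47, WRKY22, WRKY6 and ZAP1 were higher by 1.34, 0.69, 0.65 and 0.49 (SE from 0.10 to 0.16), and 3 of these 7 factors (WRKY53, WRKY22 and WRKY6) are also members of the senescence group.

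Ubiquitin-conjugating enzymes pass ubiquitin to the ligases that mark proteins for breakdown. Of 13 tested, 7 were higher and none lower, with a median of 0.36 (limma, with 8 higher and 0 lower at an unadjusted p under 0.05). UBC30 was at 8.64, 8.94 and 8.76 against 8.05, 8.03 and 7.92, higher by 0.78 (SE 0.10), and UBC28 by 0.73 (SE 0.11). UBC32 was higher by 0.57 (SE 0.13), while UBC20 stood at -0.35 (SE 0.20). VPS proteins sort membrane cargo to the vacuole, many of them as parts of the ESCRT complexes. Of 14 tested, 9 were higher and 2 lower, with a median of 0.42. VPS20.1 was at 6.67, 6.51 and 6.41 against 5.58, 5.77 and 5.49, a difference of 0.92 (SE 0.11), and VPS60.2 and VPS60.1 were higher by 0.66 and 0.61. The lower members were VPS9B at -0.44 (SE 0.10) and VPS2.2 at -0.45 (SE 0.15), and VPS2.2 lost its call without wired replicate 1 or 3 or unwounded replicate 1 or 3 (limma adjusted p from 0.0713 to 0.157). The ubiquitin-conjugating and VPS groups were chosen after their values were seen.

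**Figure D3:**
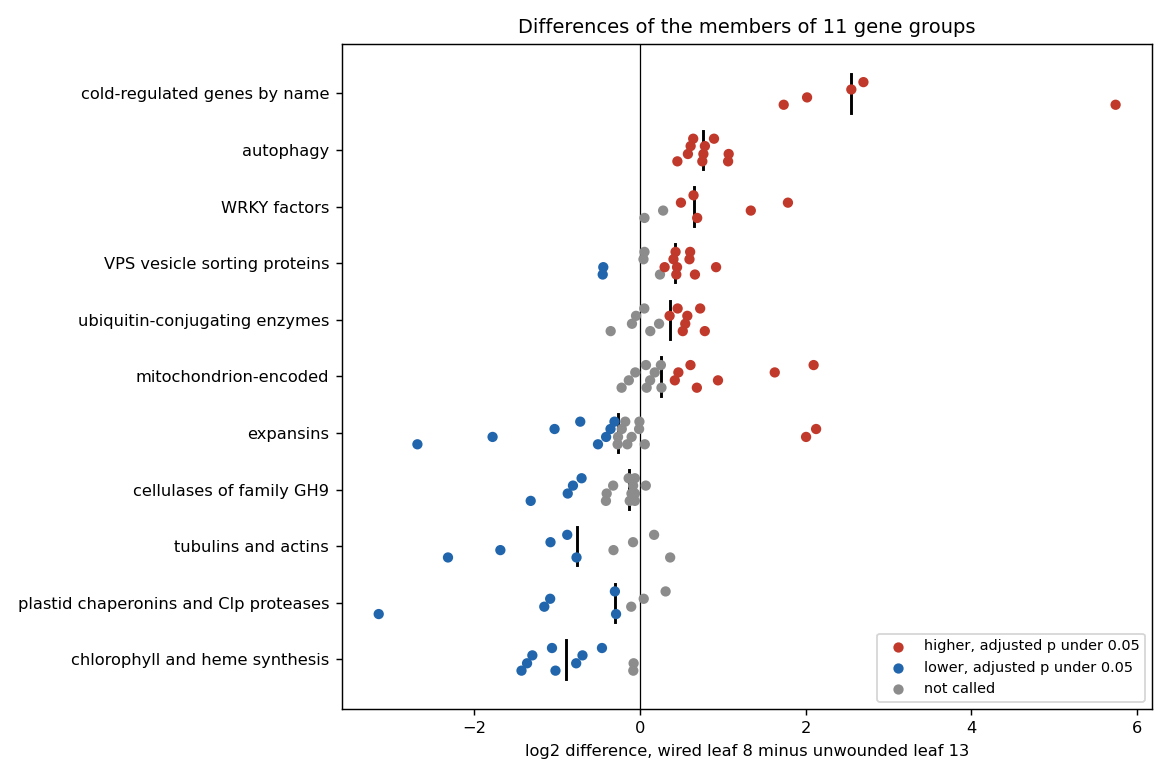
Log2 difference of each member of 11 gene groups between wired leaf 8 and unwounded leaf 13 (points, red higher, blue lower, grey not called), with the median of each group (bars). Autophagy genes lie between 0.45 and 1.07, while chlorophyll and heme genes lie between -1.43 and -0.08.

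The plastid genome encodes core subunits of the photosystems and part of the plastid's own ribosome. Of 69 plastid-encoded genes 26 were higher (37.7%) and 8 lower (11.6%), with a median of 0.27. Of the 5 photosystem I genes 3 were higher and 1 was lower. psaC, an iron-sulfur subunit of photosystem I, was at 8.55, 8.58 and 8.34 on the wired arrays and at 5.04, 5.15 and 5.38 on the unwounded arrays, higher by 3.30 (SE 0.18, limma adjusted p = 4.16e-08) or 9.84-fold. The small photosystem I subunits psaJ and psaI were higher by 2.11 (SE 0.13) and 1.71 (SE 0.18), but the core subunit psaA was lower, at 7.62, 7.90 and 6.83 against 8.34, 8.79 and 8.67, a difference of -1.16 (SE 0.27). Subunits of the same complex thus differed in opposite directions. How evenly the arrays pick up transcripts of the plastid and mitochondrial genomes was not tested. In the cytochrome b6f complex 4 of 6 were higher, among them petL at 7.26, 7.01 and 6.96 against 4.62, 4.63 and 4.66, a difference of 2.44 (SE 0.19), and petN and petA at 1.56 and 0.98. In photosystem II 4 of 15 were higher and 2 lower. psbA, the D1 reaction centre protein, was higher by 1.78 (SE 0.16) and psbT by 1.49 (SE 0.23), while psbN and psbK were lower, at -1.24 (SE 0.13) and -0.89 (SE 0.19). psbC stood at -0.64 (SE 0.24) and was not called, but it was called lower in a fit of the 6 arrays alone, under median centring, with array weights, without the dimmest 50% of genes and without wired replicate 1 or 2 (limma adjusted p from 0.0275 to 0.0469).

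Of the other plastid classes, the NDH complex had 4 higher and 1 lower of 10, the ribosome 5 higher and 3 lower of 15, and the ATP synthase none higher and 1 lower of 6. The 8 plastid genes outside these complexes and the plastid RNA polymerase had 4 higher and none lower (limma, with 4 higher and 0 lower at an unadjusted p under 0.05), with a median of 0.51. ndhD was higher by 1.79 (SE 0.16) and ndhH was at -0.68 (SE 0.15). rpoC1, a subunit of the plastid RNA polymerase, was at 8.16, 8.00 and 7.61 against 6.34, 5.60 and 5.85, higher by 1.99 (SE 0.21). rpl20 was higher by 1.58 (SE 0.18), and rbcL, the large subunit of Rubisco, by 0.75 (SE 0.13). Several of these counts moved with the arrays used. Without wired replicate 3 or without unwounded replicate 3, 5 plastid genes were lower in place of 8, and 5 also under quantile normalization. atpA at -0.78 and rpl16 at -1.00 moved to -0.40 and -0.44 without wired replicate 3 (limma adjusted p = 0.198 and 0.142). The count of higher NDH genes fell to 1 without wired replicate 1 or under median centring, and to 2 without wired replicate 2 or unwounded replicate 1 or 2. In the ribosome class 1 gene was lower without wired replicate 3, without unwounded replicate 3 or under quantile normalization. Without wired replicate 3, 1 ATP synthase gene was higher. The lone ATP synthase call, atpA, was also lost under quantile normalization, with a robust trend and without unwounded replicate 1, 2 or 3 (limma adjusted p from 0.0582 to 0.155), and 4 photosystem II genes were lower without wired replicate 2.

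**Figure D4:**
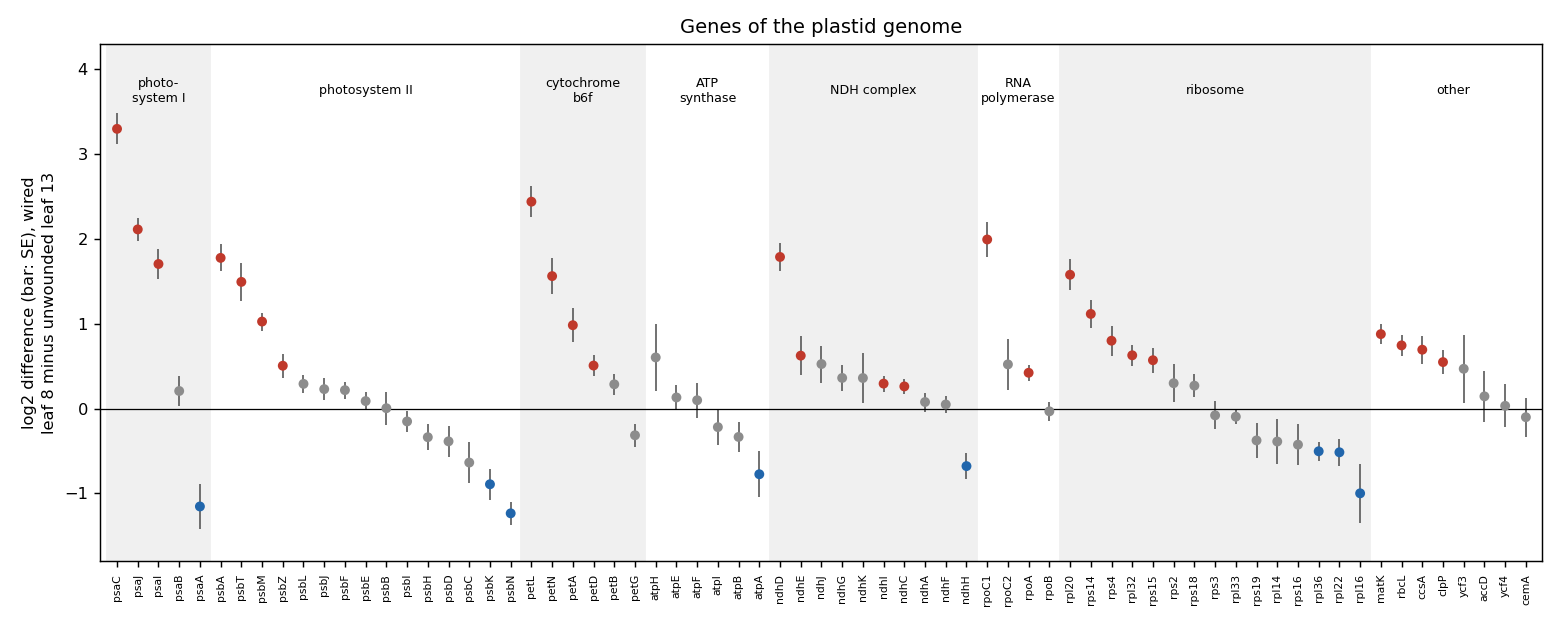
Log2 difference of each of the 69 plastid-encoded genes between wired leaf 8 and unwounded leaf 13, with limma's SE as bars, ordered within each complex (red higher, blue lower, grey not called). psaC, psaJ and psaI of photosystem I lie at 3.30, 2.11 and 1.71, and psaA of the same complex at -1.16.

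Of 16 mitochondrion-encoded genes 7 were higher and none lower, with a median of 0.26 (limma, with 7 higher and 0 lower at an unadjusted p under 0.05). nad4, a subunit of respiratory complex I, was at 7.79, 7.48 and 7.34 against 5.87, 5.24 and 5.21, higher by 2.10 (SE 0.20). cox1, a cytochrome oxidase subunit, was at 6.85, 6.67 and 6.78 against 5.28, 5.06 and 5.07, a difference of 1.63 (SE 0.16, limma adjusted p = 3.41e-06). When the dimmest 50% of genes were left out, 3 of these genes were called higher, since fewer were tested.

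Many of the tested nuclear genes for chlorophyll synthesis and plastid proteins were lower in the older leaf. Chlorophyll and heme share a pathway from glutamate to protoporphyrin. Of its 10 tested genes 8 were lower and none higher, with a median of -0.90 (limma, with 8 lower and 0 higher at an unadjusted p under 0.05). GSA1, which makes the precursor aminolevulinate, was at 8.24, 8.10 and 7.99 against 9.39, 9.30 and 9.53, a difference of -1.30 (SE 0.14, limma adjusted p = 7.85e-06). HEME1, a uroporphyrinogen decarboxylase, was at 8.23, 8.05 and 7.96 against 9.53, 9.33 and 9.66, a difference of -1.43 (SE 0.11) or 2.69-fold, and its paralog HEME2 stood at -1.36 (SE 0.10). In both genes the highest wired array was more than 1 unit below the lowest unwounded array. HEMB1 and hemf2 of the shared steps stood at -0.69 and -1.02. In the chlorophyll branch the magnesium chelatase subunit CHLI2, the methyltransferase CHLM and the light-dependent reductase PORB stood at -0.77, -0.46 and -1.06 (SE from 0.09 to 0.18). HEMA2, an isoform of the first enzyme, stood at -0.08 (SE 0.16) and was not called. This group was chosen after its values were seen.

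Cpn60beta2, a chaperonin that folds plastid proteins, had the largest fall of the named genes. It was at 6.93, 6.82 and 6.77 in wired leaf 8 and at 10.03, 9.91 and 10.03 in unwounded leaf 13, a difference of -3.15 (SE 0.22, limma adjusted p = 2.43e-07) or 8.90-fold. Its relative Cpn60beta3 stood at 0.31 (SE 0.12). Of 8 plastid chaperonins, Clp proteases and thylakoid-curving CURT1 proteins, a group chosen after its values were seen, 5 were lower and none higher, and 3 were lower without unwounded replicate 1. In the fit of the 6 arrays alone, with array weights, without the dimmest 50% of genes and with the replicate block, 1 of the 8 was higher. NCLPP7, a Clp protease, and the CURT1 gene AT4G38100 stood at -1.08 (SE 0.09) and -1.16 (SE 0.13). Of 5 nuclear photosystem and antenna genes 3 were lower, all by less than 1. LHCB4.3, PSBY and LHCB4.1 stood at -0.80 (SE 0.14), -0.38 (SE 0.08) and -0.23 (SE 0.08), and LHCB4.1 lost its call without any 1 of the 6 arrays, in a fit of the 6 alone, under quantile normalization and with the replicate block (limma adjusted p from 0.0616 to 0.152). Of 9 peroxidases 1 was higher and 3 were lower, with a median of 0.01. The ascorbate peroxidases SAPX and TAPX, which remove hydrogen peroxide in the plastid, were among the lower ones. SAPX was at 7.55, 7.10 and 7.19 against 8.98, 8.84 and 8.81, a difference of -1.60 (SE 0.16), and TAPX was at -0.53 (SE 0.09). The third, AT5G66390 at -0.30 (SE 0.11), lost its call without any 1 array other than wired replicate 3 and with the replicate block (limma adjusted p from 0.0545 to 0.148). The higher peroxidase was AT5G64120 at 0.80 (SE 0.22), whose call was lost without wired replicate 2 or unwounded replicate 3 (limma adjusted p = 0.0527 and 0.0747). MSRB6, a methionine sulfoxide reductase, was at 6.99, 6.28 and 6.91 against 9.41, 9.27 and 9.07, a difference of -2.52 (SE 0.27).

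The few tested genes of the cell cycle were lower in the older leaf. Of 60 listed, 3 were tested, and all 3 were called lower. PRL, a subunit of the helicase that opens replication origins, was at 4.52, 4.38 and 4.14 against 5.60, 5.44 and 5.98, a difference of -1.33 (SE 0.17, limma adjusted p = 3.16e-05). The mitotic kinases AUR1 and AUR2 stood at -0.65 (SE 0.15) and -0.38 (SE 0.13), and AUR2 missed the threshold without wired replicate 1 or 2 or unwounded replicate 2 or 3, under quantile normalization and with the replicate block (limma adjusted p from 0.0528 to 0.163). Of 5 histone genes 1 was higher and 2 were lower, or 1 without the dimmest 50% of genes. HTB2, a histone H2B, was at 5.55, 5.58 and 5.52 against 6.94, 6.62 and 6.98, a difference of -1.30 (SE 0.11), and the centromeric histone HTR12 was at -0.44 (SE 0.13). HTR12 lost its call without wired replicate 3 or unwounded replicate 1 (limma adjusted p = 0.0933 and 0.103). The linker histone HIS1-3, described above, was the 1 histone gene that was higher.

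Genes of the stomatal lineage and trichomes were few. STOMAGEN, a peptide from the mesophyll that promotes stomata, was at 6.25, 5.39 and 5.72 against 7.27, 6.92 and 7.31, a difference of -1.38 (SE 0.18). FMA, which ends the divisions of guard mother cells, was at 4.36, 4.03 and 3.92 against 5.34, 4.83 and 5.12, a difference of -0.99 (SE 0.16). Neither gene overlapped between groups, while SPCH and MUTE, which act earlier in the lineage, had means between 2.22 and 3.05 and were not called. SIM, which stops division in trichomes, stood at -0.36 (SE 0.09) and was lower, and TRY, a repressor of trichome fate, stood at -0.29 (SE 0.21). Whether these cell types and the dividing cells have a part in the differences of the growth genes that follow was not tested.

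Cytoskeletal genes were in part lower. Of 9 tubulins and actins 5 were lower and none higher, with a median of -0.77, in a group chosen after its values were seen. ACT11, an actin, was at 3.50, 3.12 and 3.10 against 5.66, 5.38 and 5.63, a difference of -2.32 (SE 0.15, limma adjusted p = 9.09e-08) or 4.98-fold. TUB1, a beta-tubulin, was at 3.56, 2.96 and 3.08 against 4.81, 4.95 and 4.90, a difference of -1.69 (SE 0.13). TUB7, TUA6 and TUB6 stood at -1.08, -0.88 and -0.77 (SE from 0.10 to 0.12). TUB9 stood at 0.36 and was called higher in a fit of the 6 arrays alone and with array weights (limma adjusted p = 0.00838 and 0.0393). Tubulins are close paralogs, and how far their probes tell them apart was not tested. Of 15 IQ-domain proteins, many of which bind calmodulin and microtubules, 6 were lower and 2 higher. The IQ-domain group was also chosen after its values were seen. The lowest was iqd21 at 7.18, 6.37 and 6.56 against 8.37, 8.44 and 8.38, a difference of -1.70 (SE 0.16). IQD22 was higher by 0.87 (SE 0.19).

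Wall-loosening genes were mixed, with more of them lower. Of 19 expansins 8 were lower and 2 higher, with a median of -0.27. EXPB1, a beta-expansin, was at 5.56, 5.22 and 4.76 against 7.97, 7.75 and 7.88, a difference of -2.69 (SE 0.19, limma adjusted p = 3.03e-07) or 6.44-fold. EXPA8 was at 8.37, 7.30 and 7.56 against 9.50, 9.66 and 9.41, a difference of -1.78 (SE 0.33), and EXPA15 and EXPB3 stood at -1.03 and -0.72. The higher members were EXLA1 at 8.31, 6.75 and 7.67 against 5.42, 5.48 and 5.45, a difference of 2.13 (SE 0.30), and EXPA16 at 7.73, 7.50 and 7.53 against 5.53, 5.29 and 5.93, a difference of 2.00 (SE 0.15). Expansins thus lay at both ends. Without the dimmest 50% of genes, 5 expansins were lower. Of 11 xyloglucan genes 4 were higher and 2 lower, and 1 in each direction remained by count without the dimmest 50% of genes. XTH19 and XTH18 were higher by 1.69 (SE 0.35) and 0.81 (SE 0.18), and XTH16 and XTH32 stood at -1.08 (SE 0.15) and -0.79 (SE 0.17).

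Genes that make or trim wall polysaccharides were lower more often than higher. Of 15 cellulases of family GH9, which trim glucan chains, 4 were lower and none higher (limma, with 6 lower and 0 higher at an unadjusted p under 0.05), and 2 were lower without the dimmest 50% of genes. GH9C2 was at 8.38, 8.24 and 7.60 against 9.38, 9.35 and 9.44, a difference of -1.32 (SE 0.17), and GH9B13 and GH9B18 stood at -0.87 and -0.81. Of 5 CSLC genes, which make the backbone of xyloglucan, 3 were lower with a median of -0.51, led by CSLC5 at -0.69 (SE 0.11). Of 27 genes of cellulose, lignin and wall acetylation 7 were lower and 5 higher. TBL45, of a family whose known members acetylate wall polymers, was at 6.03, 5.08 and 5.27 against 7.72, 7.54 and 7.55, a difference of -2.15 (SE 0.19), while TBL37 was higher by 0.71 (SE 0.18). The count of higher members fell to between 1 and 3 without wired replicate 1 or 2 or any 1 unwounded array, and to 2 under quantile normalization or median centring. The GH9 and CSLC groups were chosen after their values were seen.

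Several other large falls belong to single genes. BZIP61, a bZIP transcription factor, was at 6.64, 3.85 and 5.33 against 7.70, 7.69 and 7.66. The wired arrays differed widely from each other, yet the difference of -2.41 (SE 0.49, limma adjusted p = 0.00138) was called, and it lay between -3.09 and -1.70 when 1 array was left out. SBT1.3, a subtilisin-like protease, was at 4.92, 4.71 and 5.00 against 6.96, 6.48 and 6.82, a difference of -1.88 (SE 0.13). ATLP-1, a thaumatin-like protein, and DRT100, named for tolerance of DNA damage, stood at -1.87 (SE 0.20) and -1.77 (SE 0.20). GH3.9, of the family that conjugates auxin and jasmonate to amino acids, stood at -1.71 (SE 0.12). Among 34 proteases, which are serine carboxypeptidases in the main, 7 were lower and 3 higher, with 4 lower without unwounded replicate 1. SCPL49 was higher by 1.50 (SE 0.16) and scpl25 stood at -1.06 (SE 0.12).

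Hormone, clock and nutrient genes were represented by few members. GI, a clock gene that peaks towards evening, was at 8.73, 8.18 and 8.37 against 7.08, 7.13 and 7.40, higher by 1.22 (SE 0.17, limma adjusted p = 6.23e-05). It is the 1 of 32 listed clock genes that was tested here. PYE and BHLH101, bHLH factors of the response to low iron, were higher. PYE was at 6.20, 6.78 and 6.37 against 4.29, 4.58 and 5.00, a difference of 1.83 (SE 0.19), and BHLH101 was at 3.67, 4.31 and 4.01 against 2.19, 2.57 and 2.08, a difference of 1.72 (SE 0.23). Of 6 cytokinin and gibberellin genes 3 were higher, namely the response regulator RR16 at 1.35 (SE 0.19) and the gibberellin receptors GID1B and GID1A at 0.73 and 0.73. ARR15, another response regulator, stood at -0.44 (SE 0.18) and was not called. In a fit of the 6 arrays alone, under quantile normalization or median centring and with array weights it was called (limma adjusted p from 0.0286 to 0.0451), and 1 of the 6 genes was then lower. Of 10 auxin genes HAT2 was the 1 called, higher by 1.07 (SE 0.22). IAA29, an auxin repressor, was at 7.82, 6.48 and 7.29 against 6.46, 6.87 and 6.68, overlapping, at 0.53 (SE 0.33), and it passed without wired replicate 2 at 0.89 (limma adjusted p = 0.0472), when 2 auxin genes were higher.

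Genes of specialised metabolism and defence differed in part. Of 24 cytochrome P450 genes 8 were higher and 1 lower, among them CYP78A9 at 6.50, 6.96 and 6.37 against 4.98, 5.09 and 5.22, a difference of 1.52 (SE 0.22), CYP71B23 at 1.38 and CYP71B24 at 1.28. The lower member was CYP71B22 at -0.98 (SE 0.14). The count of lower P450 genes was 2 without wired replicate 3 and under median centring, and 0 without the dimmest 50% of genes. Of 13 glutathione transferases 2 were higher and 2 lower, or 15.4% each, slightly below the shares of all genes in both directions. As a group they thus did not stand out from all genes. They included GSTU16 at 1.50 (SE 0.15) and GSTF4 at -1.03 (SE 0.16). Of these transferases, 1 was higher under median centring and without wired replicate 2 or 3 or unwounded replicate 1 or 3. Their count of lower members was 4 under median centring and with a robust trend, and 1 without the dimmest 50% of genes. Of 43 UGT glycosyltransferases 9 were higher and 2 lower, a share of 20.9% higher, with 5 higher without wired replicate 1 and 4 lower without wired replicate 3 and in a fit of the 6 arrays alone. UGT78D1, which adds rhamnose to flavonols, was at 5.36, 5.59 and 5.02 against 6.97, 7.04 and 7.05, a difference of -1.70 (SE 0.13). Of 8 glutamate receptor-like channels, in a group chosen after its values were seen, 3 were higher and none lower (limma, with 3 higher and 0 lower at an unadjusted p under 0.05), led by GLR2.7 at 1.18 (SE 0.18). BCAT4, of glucosinolate synthesis from methionine, was higher by 1.22 (SE 0.17).

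Among 20 sugar transporters 4 were higher and 5 lower. SWEET13, a sucrose exporter, was higher by 0.92 (SE 0.16), and SWEET2, of the vacuole membrane, stood at -0.54 (SE 0.18). The count of lower members fell to between 1 and 3 without any 1 of the 6 arrays and to 2 with the replicate block, and 2 were higher without unwounded replicate 2. SWEET2 lost its call without wired replicate 1 or 3 or unwounded replicate 1 (limma adjusted p = 0.0890, 0.0900 and 0.129).

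The second comparison set current leaf 8 against leaf 13 of wounded plants, on arrays that the first did not use, although both take their variance from the same fit. In it 4762 genes (35.7%) were called, 2522 (18.9%) higher and 2240 (16.8%) lower, with 491 (3.68%) higher and 397 (2.97%) lower by at least 2-fold. The groups did not overlap for 5987 genes (44.8%). Of the 2223 genes higher in wired leaf 8, 1701 were also higher here, which is 76.5% of the first list and 67.4% of the second, and 34 were lower. Of the 2168 lower genes 1574 were also lower, 72.6% of the first list and 70.3% of the second, and 14 were higher. Of the genes that differed by at least 2-fold, 319 of 387 were higher again (82.4%) and 283 of 295 were lower again (95.9%). Wire and experiment differ in both comparisons, so calls shared by them do not separate these from leaf position.

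Values of the second comparison are given beside those of the first for genes described above. The wax gene WSD1 was higher by 3.34 in the first comparison and by 3.51 (SE 0.36) in the second, PPDK by 2.44 and 3.17 (SE 0.27), and psaC by 3.30 and 3.63 (SE 0.18). Cpn60beta2 stood at -3.15 and -2.84 (SE 0.22), SBT1.3 at -1.88 and -1.86, and TUB1 at -1.69 and -2.40. Of the 10 autophagy genes 9 were higher again, and the exception was ATG8D at 0.35, which was not called. Other groups held less well. Among 7 senescence genes 3 were higher again, and among 7 WRKY factors 4 were higher, with 3 called alike in both. Rapid stress and touch genes had 3 higher and 1 lower of 9, with a median of -0.05 and 2 called alike. U-box ligases had 2 higher and 1 lower of 9. VPS genes had 9 higher and 1 lower of 14, with 9 called alike. In the chlorophyll and heme group 9 of 10 were lower, including the 8 of the first comparison. Of the expansins 8 were lower and 2 higher again, 7 of these 10 being called alike in both. EXPA8, at -1.78 in the first comparison, stood at -0.38 (SE 0.33) in the second and was not called. Of plastid-encoded genes 47 were higher and 4 lower in the second comparison, with a median of 0.71 against 0.27 in the first, and 30 were called alike in both.

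The first comparison differed from the second in 381 genes (2.85%), tested as 1 contrast over the 12 arrays. With 1 array left out this count lay between 227 and 469, and it was between 227 and 253 without wired replicate 3, unwounded replicate 1 or 2, or replicate 2 or 3 of leaf 13 of wounded plants. Genes of cold and of rapid stress were among them. COR47 was higher by 2.55 in the first comparison and by 1.33 in the second, a difference of 1.22 (SE 0.15, limma adjusted p = 0.000681). In the second comparison its current arrays were at 11.31, 11.26 and 11.06 and its leaf 13 arrays at 9.73, 9.83 and 10.07. For LTI30 the values were 2.70 and 0.78, differing by 1.91 (SE 0.28, limma adjusted p = 0.00172). STZ was higher by 2.25 in the first comparison and stood at -0.47 in the second, where its current arrays were at 6.66, 7.65 and 7.23 and the leaf 13 arrays at 7.25, 7.70 and 7.98, overlapping. PUB43 was higher by 0.78 in the first and lower in the second, at -1.10 (SE 0.16). Leaf position, wire and experiment differ together in the second comparison too, and both treatments act on it. None of these can be told apart in it.

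**Figure D5:**
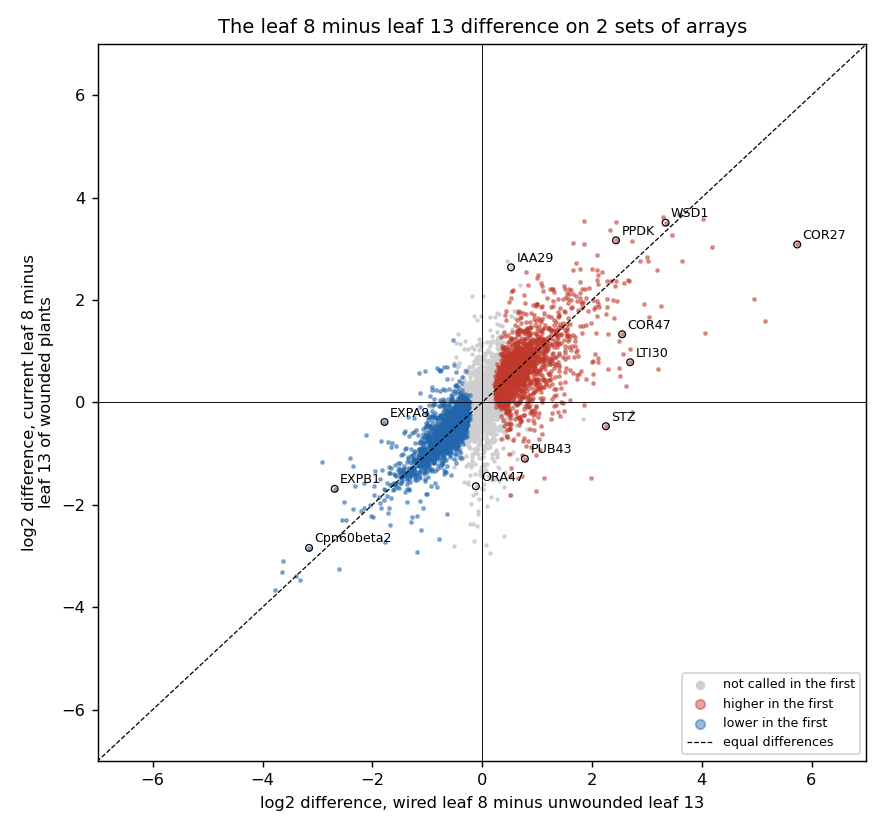
Log2 difference of each of 13356 genes in the first comparison (horizontal axis, wired leaf 8 minus unwounded leaf 13) and in the second (vertical axis, current leaf 8 minus leaf 13 of wounded plants), on arrays that the comparisons do not share, with the dashed line marking equal differences. Points are red where higher, blue where lower and grey where not called in the first. Of the genes lower by at least 2-fold in the first, 283 of 295 were lower in the second, while STZ at 2.25 and -0.47 and PUB43 at 0.78 and -1.10 lie on opposite sides of 0.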

How the data were processed

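The deposited files hold 1 log2 value per probe set and array, made by the authors with RMA and Affymetrix Power Tools as named in the submitters' processing notes; versions and settings are not given in the sources used here. The log base is not stated by the labels, and the deposited values (1.46 to 13.3) were taken as log2 without further normalization. Of 22810 probe sets 64 are controls, 13513 carry 1 gene, 503 several and 8730 none in the platform annotation used here. Probe sets of a gene were averaged to 13356 genes, of which 13286 matched RefSeq's table (TAIR10.1), used for symbols and synonyms only; 1683 carry a name.

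One mean per group was fitted over all 12 arrays with limma 3.58.1 in R 4.3.3 (lmFit, eBayes, 8 residual and 6.31 prior degrees of freedom), two-sided, with Benjamini-Hochberg adjustment and a threshold of 0.05. The script was tested on simulated data. Alternatives were a fit of the 6 arrays alone, quantile normalization, median centring, a robust trend, array weights, leaving out the dimmest 50% of genes, the brightest probe set per gene, all probe sets, the replicate number as a block, and each array left out. Group counts and the count of genes that differ between the comparisons were put through them as a choice made after seeing the data.

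Named are the 12 largest rises and 12 largest falls among named genes called without overlap between groups, and up to 3 called members and 1 other member of each group by size; genes and groups outside this rule, the groups marked as such among them, were chosen after their values were seen. The groups and lists were chosen with earlier results of these data known. Promoter motifs and sequences were not analysed here.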

Additional observations from a re-analysis of the deposited data

Results flagged for a closer look

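Among the 226 named genes, 31 had a leaf difference that was not the same in the first and second comparisons, tested with limma as the first difference minus the second. For 17 of them the first difference was above the second and for 14 below. The first comparison is wired leaf 8 minus unwounded leaf 13 and the second is current leaf 8 minus leaf 13 of wounded plants. By arithmetic, the first minus the second also equals the wound difference of leaf 13 minus the current difference of leaf 8.

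For the cold and stress genes named here the first difference was above the second. The first minus the second difference was 2.72 for STZ (2.25 and -0.47), 1.91 for LTI30 (2.70 and 0.78) and 1.22 for COR47 (2.55 and 1.33). It was 1.21 for COR15B (2.02 and 0.80), 1.20 for COR15A (1.73 and 0.53), 1.88 for PUB43 (0.78 and -1.10) and 1.75 for CML38 (0.64 and -1.11). For jasmonate genes it was 2.10 for NAI1 (0.08 and -2.02), 1.81 for OPCL1 (0.52 and -1.29), 1.52 for ORA47 (-0.12 and -1.64) and 1.39 for JMT (-0.03 and -1.42). In leaf 13 of wounded plants against unwounded leaf 13, these 4 jasmonate genes were higher by 2.88, 3.64, 3.35 and 3.13.

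Among wall and other genes the value was 1.66 for the peroxidase AT5G64120 (0.80 and -0.86), 1.53 for the pectin methylesterase ATPMEPCRB (0.52 and -1.00), 1.22 for EXPA16 (2.00 and 0.79) and 1.06 for TBL37 (0.71 and -0.35). It was 0.92 for SWEET4 (0.50 and -0.42) and 0.91 for SCPL49 (1.50 and 0.59).

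The first difference was below the second for hormone-related genes, at -2.11 for IAA29 (0.53 and 2.64), -1.27 for HAT2 (1.07 and 2.34), -1.16 for ARR15 (-0.44 and 0.72), -1.20 for UGT74D1 (-0.91 and 0.29) and -0.94 for GH3.9 (-1.71 and -0.77). It was -1.77 for SWEET2 (-0.54 and 1.23), -0.97 for SWEET13 (0.92 and 1.90) and -1.48 for the xyloglucan gene EXGT-A3 (0.48 and 1.96). Among transcription factors it was -1.76 for AT5G61590 (0.79 and 2.55), -0.91 for MYBC1 (0.60 and 1.51) and -0.58 for AT5G47390 (0.36 and 0.94). For the plastid genes petL, psaI and rbcL it was -1.08 (2.44 and 3.51), -1.02 (1.71 and 2.72) and -1.00 (0.75 and 1.75).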

How the results depend on the processing

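For the 8 counts of higher and lower genes in both leaf comparisons, every alternative but 1 gave a count within 1.5 times that reported. The exception tested 22746 probe sets, named or not, which is more features by construction, and gave 4247 higher and 4136 lower in the first comparison (825 and 620 by at least 2-fold) and 4722 and 4312 in the second (998 and 809). With 1 array left out the first comparison had 1800 to 2025 higher and 1776 to 1970 lower genes (364 to 433 and 263 to 337 by at least 2-fold), and the second 2178 to 2468 and 1916 to 2241 (427 to 549 and 339 to 438). Genes that differed between the comparisons numbered 227 to 469 with 1 array left out, against 381. Median centring moved the share of calls that were higher from 50.6% to 41.6% in the first comparison (1902 higher, 2673 lower) and from 53.0% to 39.7% in the second (2057 and 3121), with the median difference of all genes at -0.08 and -0.11 in place of -0.02 in both. Replicate numbers gave no sign of pairing, since deviations of same-numbered arrays correlated between -0.115 and 0.112. With the replicate block 2174 genes were higher and 2114 lower in the first comparison, 2490 and 2196 in the second, and 382 differed between them. Of 3123 values of the 226 named genes under alternatives, 93 lost and 54 gained a call, and 13 values of 6 genes that were not called changed sign; the cause was not tested. CEG (-0.01) moved to 0.011 under quantile normalization and lay between -0.035 and 0.03 with 1 array left out, NRT2.5 (-0.01) to 0.035 and between -0.11 and 0.082, and JMT (-0.03) to 0.024 with array weights and between -0.19 and 0.092. With 1 array left out PDF1.2b (-0.47) lay between -1.16 and 0.57, NAI1 (0.08) between -0.011 and 0.196 and ORA47 (-0.12) between -0.32 and 0.094. The 3 arrays a group limit the precision.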

Other observations

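Several smaller groups were not described above. Of 11 microtubule and kinesin genes, which share the tubulins with the cytoskeleton group, 5 were lower and none higher, with a median of -0.32 (limma, with 7 lower and 1 higher at an unadjusted p under 0.05), and 1 was higher in the fit of the 6 arrays alone and with array weights. Of 7 bHLH factors 3 were higher and 1 was lower, namely bHLH115 at -0.58 (SE 0.17), and none was lower without wired replicate 3. Of 7 flavonoid genes 2 were lower and none higher (limma, with 3 lower and 0 higher at an unadjusted p under 0.05). Of 8 calcium-binding and calmodulin-like genes 1 was higher and 1 lower, and 2 were higher in the fit of the 6 arrays alone. Of 5 glucosinolate genes 2 were higher and none lower (limma, with 2 higher and 0 lower at an unadjusted p under 0.05), and 1 was higher in the fit of the 6 arrays alone, under median centring and without wired replicate 1 or 2 or unwounded replicate 1 or 3.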
